A study of Mus musculus with 11 samples.

Results

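RNA of pachytene spermatocytes from mice that carry 1 disrupted copy of Dnmt3L was set against RNA of the same cells from wild type mice. The comparison rests on 5 of the 11 arrays of the series, 2 titled heterozygous and 3 titled wild type, chosen by those titles and by no measured value. Every probe was used: the arrays (Illumina Mouse WG-6 BeadChip, a glass slide of bead-bound gene probes) hold 46643 probes, of which 27986 were tested after the 40% with the lowest mean over all arrays had been left out. In heterozygous mice a LacZ cassette interrupts a coding exon of 1 Dnmt3L allele, from targeting DNA of another inbred strain, and the other allele is intact. Both genotypes were C57Bl/6 adults aged 8 to 12 weeks, with no treatment, and each preparation pooled the testes of 10 mice before the cells were separated by size through elutriation. An array is therefore a pool and not an animal, and p-values measure the spread between pools. The 6 arrays of round spermatids from the same genotypes, 3 heterozygous and 3 wild type, entered the fit and are quoted only for contrast. All values are log2 signals as deposited, so a difference of 1 is a doubling on that scale, and differences are heterozygous minus wild type, the opposite sign to that used in the study's own tables.

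DNMT3L resembles the DNA methyltransferases but has no catalytic activity of its own. It binds DNMT3A and DNMT3B and stimulates the methylation of imprinted regions and transposons in germ cells, mainly in prospermatogonia before birth, and males without it lose their germ cells at meiosis. Pachytene spermatocytes are the long-lived cells of meiotic prophase in which homologous chromosomes are joined by the synaptonemal complex, the X and Y are transcriptionally silenced, and many transcripts of the later, haploid spermatids are already made and stored. Round spermatids then produce large amounts of mRNA for protamines, acrosome proteins and parts of the sperm tail.

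The labelled cell type was checked against its markers. Markers of pachytene cells were high on every array: Ldhc, the germ cell lactate dehydrogenase, read 13.29 and 13.34 in heterozygous and 13.27, 13.36 and 13.39 in wild type spermatocytes, and Hspa2, the meiotic heat shock protein, lay between 13.74 and 13.92 on all 5. The probe of Sycp3, an axial protein of the synaptonemal complex, was near background (6.82 to 6.86) on every array and so tells nothing of this cell type. The 17 measured pachytene markers averaged 10.41 to 10.60 on spermatocyte arrays and 9.99 to 10.40 on spermatid arrays, a narrow gap. Round spermatid markers (43 measured) averaged 9.63 to 10.38 on spermatocyte arrays and 11.55 to 12.15 on spermatid arrays. Arrays of the 5 preparations correlated with each other at r = 0.985 to 0.993 over probes, and the middle value of an array was 6.87 in a range from 6.40 to 13.99.

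The wild type arrays differed more among themselves than the heterozygous arrays did. Pairs of arrays correlated at r = 0.985 to 0.991 in wild type and at 0.993 in heterozygous spermatocytes. The median within-group SD of a probe was 0.063 in heterozygous (n = 2) and 0.097 in wild type spermatocytes (n = 3). At equal spread an SD from 2 values tends to be lower than one from 3, so these SDs are not directly comparable. Over the 43 measured markers of round spermatids, the mean level was 10.38 and 10.29 on heterozygous arrays 1 and 2 and 10.13, 9.63 and 10.13 on wild type arrays 1, 2 and 3, with wild type array 2 the lowest of the 5 for 36 of them. Sertoli cell markers (20 measured) averaged 8.14 and 8.22 on heterozygous arrays and 8.85, 8.35 and 7.72 on wild type arrays. The Sertoli cell signal was highest on wild type array 1 and lowest on array 3, and the heterozygous arrays lay between them. Clu, a secreted Sertoli cell protein, showed it in the extreme with 10.65 and 10.69 in heterozygous and 11.87, 11.29 and 9.43 in wild type spermatocytes, and Cyp17a1, a steroid enzyme of Leydig cells, read 8.43 and 8.61 in heterozygous and 10.58, 9.06 and 7.17 in wild type spermatocytes. Leydig cell markers (11 measured) averaged 7.77 and 7.84 on heterozygous arrays and 8.52, 7.89 and 7.42 on wild type arrays. Markers of macrophages and blood (14 measured) stayed between 7.13 and 7.34 on the 5 spermatocyte arrays, and Zbtb16, a stem cell factor of spermatogonia, was near background throughout. In bulk RNA of this kind, fewer cells of a type and less RNA per cell cannot be told apart.

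The locus of the disrupted gene is described first, because the called gene with the greatest measured difference is its neighbour. Aire and Dnmt3l lie head to head on opposite strands of chromosome 10, and in the RefSeq annotation of GRCm38.p6 the first of the Dnmt3l starts is 1323 bases from the Aire start, with an overlap of 1324 bases between the genes at their 5′ ends. AIRE is the autoimmune regulator of the thymus, where it turns on genes of other tissues so that T cells learn tolerance. RefSeq lists 3 starts for Dnmt3l and 1 for Aire, and the other Dnmt3l starts lie 6232 and 11725 bases from that of Aire, where the transcripts do not overlap it. The 300 bases around the Aire start and around the first of the Dnmt3l starts are shown to let the promoters of the locus be compared, from 250 bases before to 50 bases after the start, with each CpG, the dinucleotide that DNA methylation acts on, in capitals.
Aire, chr10:78043561-78043860, minus strand: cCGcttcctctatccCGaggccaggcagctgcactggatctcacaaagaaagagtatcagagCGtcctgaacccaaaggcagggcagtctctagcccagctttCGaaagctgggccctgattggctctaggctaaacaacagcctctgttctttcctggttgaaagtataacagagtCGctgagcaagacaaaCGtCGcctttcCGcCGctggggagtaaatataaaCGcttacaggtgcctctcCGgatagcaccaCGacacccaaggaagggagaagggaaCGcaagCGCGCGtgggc
Dnmt3l, chr10:78042037-78042336, plus strand: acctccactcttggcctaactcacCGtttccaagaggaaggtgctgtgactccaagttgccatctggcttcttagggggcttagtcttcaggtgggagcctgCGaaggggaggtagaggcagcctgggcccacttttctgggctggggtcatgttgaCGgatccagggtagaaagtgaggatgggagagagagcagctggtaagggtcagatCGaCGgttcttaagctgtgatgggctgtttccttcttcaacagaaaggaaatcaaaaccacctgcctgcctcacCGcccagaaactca
The Aire window holds 16 CpGs and the first Dnmt3l window 6, while the windows at the other Dnmt3l starts hold 4 and 3. Over the 32851 promoter windows of the same length in the table the median was 7 CpGs and the middle 50% lay between 3 and 20. Methylation was not measured in these samples, and the CpG count describes only the sequence.

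Aire had the greatest measured difference of the called genes. Its stronger probe read 10.70 and 8.77 in heterozygous spermatocytes, against 6.75, 6.74 and 6.88 in wild type spermatocytes. The wild type values are at the level of undetected probes, and both heterozygous values stand far above them, although they differ from each other by more than any other called probe's do. The mean was 9.74 ± 1.36 in heterozygous (SD, n = 2) and 6.79 ± 0.077 in wild type spermatocytes (SD, n = 3), a difference of 2.95 (SE 0.52) with a limma adjusted p of 0.00847. This is 7.72-fold on the deposited scale, an estimate from 2 heterozygous pools that differed widely and not a minimum. The wild type arrays are near background, where differences are compressed, so it may understate the change. The second Aire probe read 8.14 and 7.25 in heterozygous and 6.86, 6.92 and 6.87 in wild type spermatocytes, a rise of 0.81 (SE 0.21, limma adjusted p = 0.0356). On both probes heterozygous preparation 1 gave the higher value. Without it the difference was 1.98 at the stronger probe (limma adjusted p = 0.0311) and 0.37 at the second (limma adjusted p = 0.0686).

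In spermatids the same stronger probe read 7.10, 8.45 and 7.58 on the heterozygous arrays and 6.80, 6.73 and 6.89 on the wild type arrays, again without overlap, a difference of 0.90 that did not pass the test (limma adjusted p = 0.316). The Aire difference was larger in spermatocytes than in spermatids by 2.05 at the stronger probe, with an unadjusted p of 0.0163 in the limma interaction and an adjusted p of 1.00, and by 0.66 at the second, with an unadjusted p of 0.0408.

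Dnmt3l itself has 1 probe. It read 8.82 and 8.66 in heterozygous spermatocytes, against 8.27, 8.17 and 8.10 in wild type spermatocytes. All heterozygous values were above all wild type values by a margin that is small beside the spread of this probe in spermatids, and the difference of 0.56 (SE 0.32) did not pass the test (limma adjusted p = 0.374). In spermatids the probe read 10.66, 9.78 and 10.96 in heterozygous and 10.91, 10.19 and 10.75 in wild type arrays. The probe lies in an exon toward the 3′ end that the disruption leaves in place and that shorter transcripts from later starts share, so it cannot count alleles and does not check the genotype labels. Of the 29 annotated genes nearest to Dnmt3l other than Aire (15 on one side and the rest on the other), 16 were measured by 24 probes. None was called, their differences ran from -0.10 to 0.20 with a median of 0.03, and 1 probe, of the cation channel gene Trpm2, had both heterozygous arrays above all wild type arrays.

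**Figure D1:**
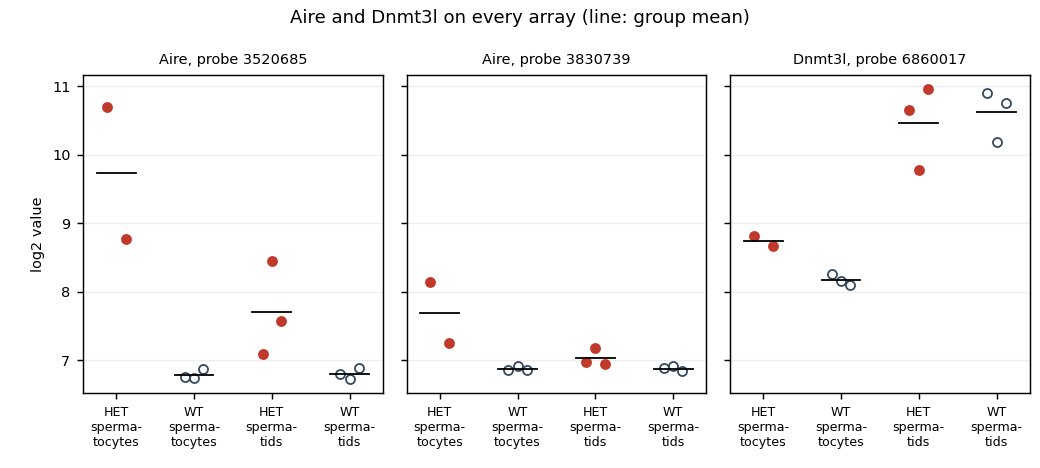
Log2 value of both Aire probes and of the Dnmt3l probe on each of the 11 arrays, heterozygous (filled) left of wild type (open) within each cell type, with a line at the group mean. The heterozygous spermatocytes read 10.70 and 8.77 at the stronger Aire probe while all wild type arrays lie near 6.8, and Dnmt3l lies higher in spermatids of both genotypes.

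Across all probes, 52 of 27986 (0.186%) were called by limma at an adjusted p of 0.05, 28 higher (0.100%) and 24 lower (0.0858%) in heterozygous spermatocytes. The rises were the larger changes: their median was 0.50 and 14 reached 0.5, while the falls had a median of -0.28, ran from -0.22 to -0.44 and held none of 0.5. Adjustment over this contrast alone, rather than over the 4 contrasts of the fit together, left 1 call, an unnamed probe (106020017), and a fit of the 5 spermatocyte arrays alone left none, with 1809 probes at an unadjusted p under 0.05. In the fit as used, 816 probes had an unadjusted p under 0.05, against 1399.3 that a uniform spread of p-values gives. Of the called probes 41 have a symbol and stand for 40 genes, and 11 have none. The falls came mostly from weak probes: the wild type level was under 8 for 21 of 24, against 16 of 28 of the rises. For comparison, 3232 probes (11.5%) had both heterozygous arrays above all 3 wild type arrays and 3159 (11.3%) had both below.

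**Figure D2:**
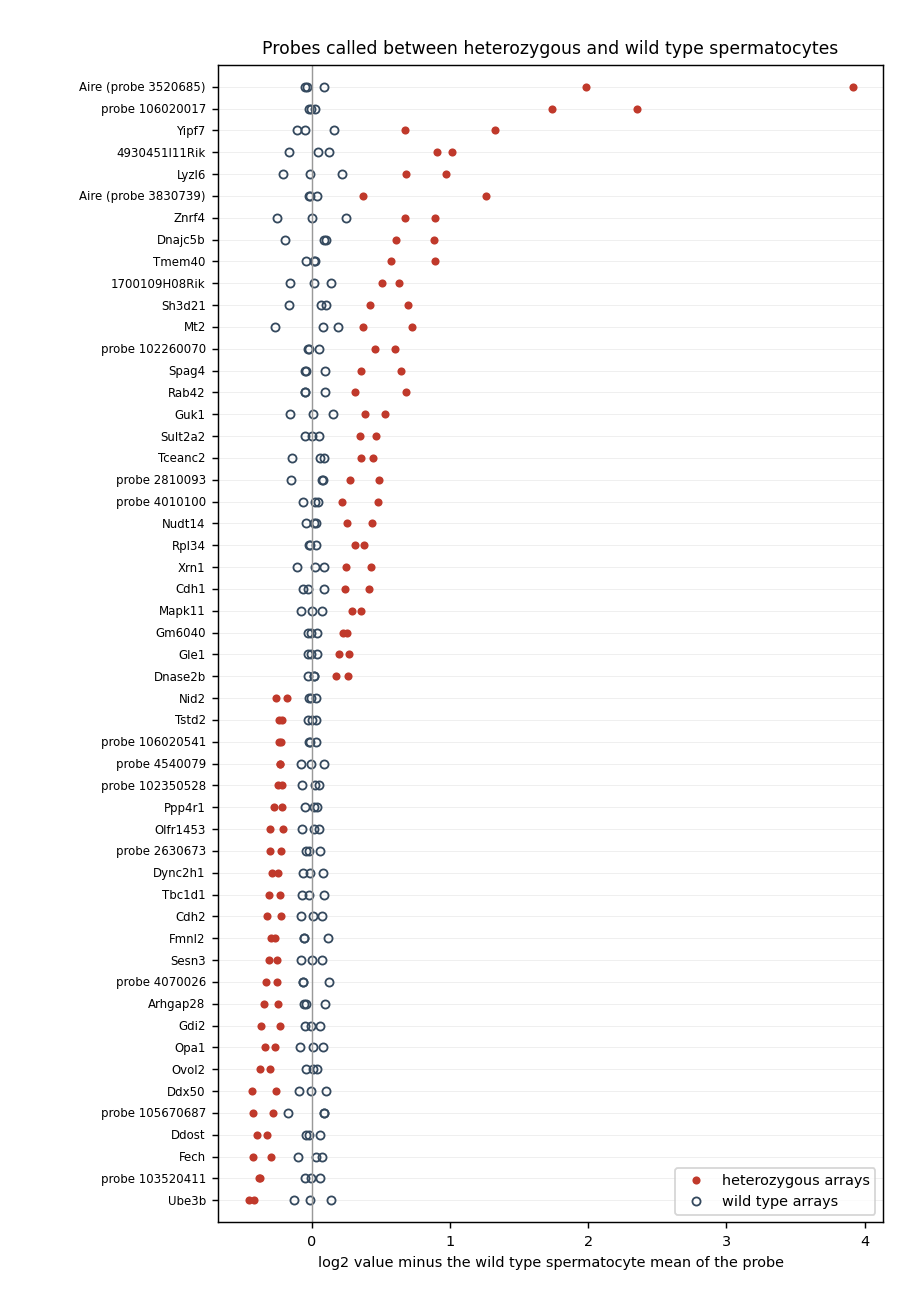
Log2 value of each of the 52 called probes on the 5 spermatocyte arrays, minus the wild type mean of that probe, with heterozygous arrays filled and wild type arrays open. The rises run from 0.22 to 2.95 and the falls from -0.22 to -0.44, and no called probe has overlapping groups.

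A probe with no gene name, 106020017, had the next measured rise. It read 9.12 and 8.50 in heterozygous spermatocytes, against 6.76, 6.79 and 6.74 in wild type spermatocytes, a difference of 2.05 (SE 0.16, limma adjusted p = 0.00035). This was the only called probe with a difference over 1 in spermatids as well, where it read 8.32, 8.17 and 7.98 on heterozygous and 6.76, 6.71 and 6.76 on wild type arrays (difference 1.41, limma adjusted p = 0.00105). The wild type values of both cell types sit at background, so both differences may understate the change. A second unnamed probe, 102260070, rose by 0.53 in spermatocytes and 0.24 in spermatids (limma adjusted p = 0.00209 and 0.0329).

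A first group of named rises was made of genes abundant in haploid cells. Lyzl6, a lysozyme-like protein of sperm, read 11.21 and 10.92 in heterozygous spermatocytes, against 10.23, 10.03 and 10.46 in wild type spermatocytes (difference 0.83, SE 0.19, limma adjusted p = 0.0256). Znrf4, a RING-type ubiquitin ligase expressed in spermatids, read 11.51 and 11.73 in heterozygous and 11.09, 10.59 and 10.84 in wild type spermatocytes (0.78, SE 0.15, limma adjusted p = 0.011). Both genes were already well expressed in wild type spermatocytes, and for both the lowest array was wild type array 2. Dnajc5b, a testis member of the cysteine string proteins, read 11.77 and 11.50 in heterozygous and 10.98, 10.70 and 10.99 in wild type spermatocytes (0.75, SE 0.17, limma adjusted p = 0.0228). Spag4, a SUN-domain protein that links the spermatid nucleus to the tail, rose by 0.50 (SE 0.12, limma adjusted p = 0.0283), with 11.81 and 11.52 in heterozygous and 11.26, 11.11 and 11.11 in wild type spermatocytes. These transcripts were higher still in spermatids, where heterozygous and wild type means were 12.82 and 12.95 for Lyzl6, 13.07 and 13.10 for Znrf4, 13.16 and 13.19 for Dnajc5b and 13.17 and 13.16 for Spag4, with no call.

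The uncharacterised testis transcripts 4930451I11Rik and 1700109H08Rik had the same form. For 4930451I11Rik the arrays read 9.47 and 9.36 in heterozygous and 8.58, 8.28 and 8.49 in wild type spermatocytes, a rise of 0.96 (SE 0.26, limma adjusted p = 0.0458). For 1700109H08Rik the rise was 0.57 (limma adjusted p = 0.023), and for Sh3d21, an SH3-domain protein, it was 0.56 (limma adjusted p = 0.0266). Of the 28 rises, 7 belonged to transcripts over 12 in wild type spermatids, and none of the 24 falls did. The round spermatid markers as a group were higher on the heterozygous arrays and lowest on wild type array 2, as given above. The part of spermatid RNA in these calls was not tested.

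Called rises of other kinds were spread over unrelated functions. Yipf7, of the Yip family of Golgi membrane proteins, read 8.77 and 8.12 in heterozygous and 7.39, 7.34 and 7.60 in wild type spermatocytes (1.00, SE 0.27, limma adjusted p = 0.046). Tmem40, a membrane protein, read 7.89 and 7.57 in heterozygous and 7.02, 6.96 and 7.01 in wild type spermatocytes (0.73, SE 0.14, limma adjusted p = 0.0111). Mt2, a metal-binding metallothionein, read 8.88 and 9.23 in heterozygous and 8.70, 8.25 and 8.59 in wild type spermatocytes (0.54, limma adjusted p = 0.038). All of these were low or moderate in level, and Tmem40 had the tightest wild type values. Sult2a2, a hydroxysteroid sulfotransferase, rose by 0.41 (limma adjusted p = 0.00937) and was called higher in spermatids too, by 0.32 (limma adjusted p = 0.0162).

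Rpl34, a protein of the large ribosomal subunit, gave 12.94 and 13.01 in heterozygous spermatocytes, against 12.62, 12.61 and 12.66 in wild type spermatocytes, a rise of 0.35 (SE 0.07, limma adjusted p = 0.0176) with hardly any spread in either group. Xrn1, the main cytoplasmic exonuclease of mRNA decay, read 8.34 and 8.16 in heterozygous and 7.81, 7.93 and 8.00 in wild type spermatocytes (0.34, limma adjusted p = 0.0336) and was also called higher in spermatids, by 0.36 (limma adjusted p = 0.017). Guk1, guanylate kinase, rose by 0.46 (limma adjusted p = 0.0424), Tceanc2, a protein with a transcription elongation factor domain, by 0.40 (limma adjusted p = 0.0217), Nudt14, a nucleotide sugar hydrolase, by 0.35 (limma adjusted p = 0.0169) and Gle1, an mRNA export factor, by 0.23 (limma adjusted p = 0.044). The remaining named rises were the small GTPase Rab42 (0.50), the epithelial cadherin Cdh1 (0.32), the stress-activated kinase Mapk11 (0.32), Gm6040 (0.24) and the acid nuclease Dnase2b (0.22).

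Among the falls the widest gap belonged to Ube3b, a HECT-type ubiquitin ligase. It read 9.72 and 9.77 in heterozygous spermatocytes, against 10.17, 10.32 and 10.05 in wild type spermatocytes (-0.44, SE 0.10, limma adjusted p = 0.0203). A stronger, uncalled probe of Ube3b had overlapping groups and a difference of -0.32 (limma adjusted p = 0.367). Ddost, a subunit of the oligosaccharyltransferase that N-glycosylates proteins in the endoplasmic reticulum, read 10.46 and 10.53 in heterozygous and 10.81, 10.84 and 10.91 in wild type spermatocytes (-0.36, SE 0.09, limma adjusted p = 0.0303). Tbc1d1, a Rab GTPase-activating protein of glucose transport, read 9.92 and 10.00 in heterozygous and 10.16, 10.21 and 10.32 in wild type spermatocytes (-0.27, limma adjusted p = 0.0385). These 3 are the only falls at a wild type level over 10.

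The other falls lie close to background, where a difference on this scale understates a change in RNA. The unnamed probe 103520411 read 7.08 and 7.08 in heterozygous and 7.40, 7.45 and 7.52 in wild type spermatocytes (-0.38, SE 0.06, limma adjusted p = 0.0042). Fech (ferrochelatase, which puts iron into haem) fell by 0.36 (limma adjusted p = 0.0354), and Opa1, which fuses inner mitochondrial membranes, by 0.30 (limma adjusted p = 0.0381). Ovol2, a zinc finger repressor, fell by 0.34 (limma adjusted p = 0.0419) and Ddx50, a nucleolar RNA helicase, by 0.34 (limma adjusted p = 0.0374).

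The remaining named falls were of varied function. Gdi2, which extracts Rab proteins from membranes, read 7.16 and 7.02 in heterozygous and 7.33, 7.45 and 7.38 in wild type spermatocytes (-0.30). Fmnl2, an actin-nucleating formin, fell by 0.28 (limma adjusted p = 0.0448) and Dync2h1, the heavy chain of the dynein that carries intraflagellar cargo back to the cell body, by 0.27 (limma adjusted p = 0.0246). Also lower were the neural cadherin Cdh2 (-0.27), the stress-induced sestrin Sesn3 (-0.28), the phosphatase subunit Ppp4r1 (-0.25), the basement membrane protein Nid2 (-0.22), Tstd2 (-0.23) and the olfactory receptor gene Olfr1453 (-0.26).

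Other probes of the same genes give a reading of these calls that the call itself did not use. Called rises had 8 further tested probes in 4 genes, of which 6 shared the sign and 2 had both heterozygous arrays above all wild type arrays. Those were in Mapk11, with 8.44 and 8.63 in heterozygous and 8.29, 8.40 and 8.15 in wild type spermatocytes, and in Spag4, with 8.86 and 8.86 in heterozygous and 8.84, 8.36 and 8.76 in wild type spermatocytes. Called falls had 22 further probes in 11 genes, of which 17 shared the sign and 7 had both heterozygous arrays below all wild type arrays. None of these 22 was called, and their differences ran from -0.41 to 0.25.

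Some of the genes called near background have another, strong probe that lay the same way without overlap. Dync2h1 read 11.86 and 11.74 in heterozygous and 11.93, 12.33 and 12.21 in wild type spermatocytes at its strongest probe (-0.36, limma adjusted p = 0.754). Another Dync2h1 probe of like strength overlapped, with 11.99 and 11.77 in heterozygous and 11.91, 12.36 and 12.12 in wild type spermatocytes (-0.25, limma adjusted p = 0.859). Sesn3 read 10.79 and 10.75 in heterozygous and 11.00, 11.30 and 11.12 in wild type spermatocytes (-0.37, limma adjusted p = 0.812). The strong probe of Ppp4r1 read 10.26 and 10.06 in heterozygous and 10.31, 10.29 and 10.27 in wild type spermatocytes (-0.12, limma adjusted p = 0.851). For others the strong probe went elsewhere. Gdi2 at its strong probe read 12.00 and 12.02 in heterozygous and 11.89, 12.16 and 12.16 in wild type spermatocytes (-0.06), and Ovol2 read 10.84 and 11.17 in heterozygous and 10.99, 10.83 and 10.46 in wild type spermatocytes (0.25). The groups overlapped at both.

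The haploid-phase genes were examined as families. Of the 43 measured round spermatid markers, 23 (53.5%) had both heterozygous arrays above all wild type arrays and none had both below, against 13.4% above and 10.1% below over the 14186 genes measured with 1 probe each, the strongest of the gene, on which all counts for lists rest. Of these markers 2 were called, Lyzl6 and Spag4, against 0.148% of all genes called higher and 0.0493% called lower. Members of this list and of those below were chosen with earlier results of these data known. The calls in a list are therefore not independent of that choice. The lists also share genes, Lyzl6 and Spag4 among them, and so are not separate readings. The median difference of the list was 0.34, against 0.01 over all genes. Without wild type array 2, which was chosen for removal after its values were seen, the list's median was 0.20. In spermatids the same list had a median of -0.02, with 1 marker above and none below. Separated groups were rarer there: 743 of all 14186 genes were above and 372 below, against 1897 and 1433 in spermatocytes. The counts of the 2 cell types are therefore not on the same footing.

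Proteins that package sperm chromatin (transition proteins, protamines and spermatid linker histones, 17 measured) had a median of 0.41 with 9 above and none below, and none was called. Prm2, a protamine, read 11.49 and 11.38 in heterozygous and 11.55, 9.37 and 11.04 in wild type spermatocytes (0.79, limma adjusted p = 0.462). Prm3 read 9.28 and 9.50 in heterozygous and 8.997, 7.99 and 8.95 in wild type spermatocytes (0.74, limma adjusted p = 0.414). Tnp1, a transition protein, read 11.75 and 11.73 in heterozygous and 11.66, 10.09 and 11.64 in wild type spermatocytes. Wild type array 2 was the lowest of the 5 for each of these genes. Without that array the list's median was 0.11.

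The testis-specific serine kinases, which phosphorylate proteins of the forming sperm, had 5 of 7 measured members above and none below, with a median of 0.48 and 0.28 without wild type array 2. Tssk3 read 10.45 and 10.36 in heterozygous and 10.05, 9.49 and 9.96 in wild type spermatocytes (0.57, limma adjusted p = 0.169), and their substrate Tsks read 10.67 and 10.49 in heterozygous and 10.25, 9.83 and 10.05 in wild type spermatocytes (0.54, limma adjusted p = 0.196). Neither overlapped and neither was called. Lysozyme-like genes, several of which serve in the acrosome, had the highest median of the lists described, 0.64 over 6 members, with 4 above and Lyzl6 called. The list averaged 9.70 and 9.53 on heterozygous and 9.28, 8.90 and 9.32 on wild type arrays. Wild type array 2 was the lowest of the 5 for all 6 members. Lyzl4 read 10.84 and 10.58 in heterozygous and 10.24, 9.76 and 10.03 in wild type spermatocytes (0.70, limma adjusted p = 0.0865), and Spaca3, a lysozyme-like acrosomal protein that sperm use to bind eggs, read 11.08 and 10.96 in heterozygous and 10.57, 10.07 and 10.44 in wild type spermatocytes (0.66, limma adjusted p = 0.0754). In spermatids the lysozyme-like median was -0.19.

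Other acrosomal and fusion genes were less uniform. Of 33 acrosome and zona-binding genes 9 were above and 1 below, with a median of 0.12, and 0.07 without wild type array 2, the lowest for 18. Spaca4, an acrosomal membrane protein, read 9.53 and 9.65 in heterozygous and 9.12, 8.54 and 8.88 in wild type spermatocytes (0.74, limma adjusted p = 0.158), while Acrbp, which holds the protease proacrosin in the acrosome, read 12.71 and 12.58 in heterozygous and 13.09, 12.83 and 12.67 in wild type spermatocytes (-0.22). Among 9 genes of sperm-egg fusion 3 were above and none below. Of these Llcfc1, a sperm protein needed for fusion, read 9.19 and 9.39 in heterozygous and 8.93, 8.37 and 8.52 in wild type spermatocytes (0.68, limma adjusted p = 0.259), and Dcst1 read 8.91 and 8.77 in heterozygous and 8.43, 8.36 and 8.46 in wild type spermatocytes (0.42, limma adjusted p = 0.376).

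The lists of tail genes differed in their medians. The outer dense fibre list had 9 of 16 above, none below, Spag4 called and a median of 0.25, and 0.15 without wild type array 2. Its uncalled member Odf3 read 10.96 and 10.73 in heterozygous and 10.33, 9.94 and 10.35 in wild type spermatocytes (0.64, limma adjusted p = 0.0631), and Sun5, which anchors the head to the tail, read 9.70 and 9.46 in heterozygous and 9.21, 8.79 and 9.07 in wild type spermatocytes (0.56, limma adjusted p = 0.202). In the fibrous sheath and sperm protein kinase A list 6 of 16 were above and none below, with a median of 0.15. Wild type array 2 was the lowest of the 5 for 9 of these genes. The calcium sensor Efcab9 of the sperm calcium channel read 10.47 and 10.38 in heterozygous and 10.12, 9.55 and 10.01 in wild type spermatocytes (0.53, limma adjusted p = 0.199). The axoneme, the microtubule core of the tail, had a median of 0.00 over 61 genes, with 10 above and 6 below.

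Intraflagellar transport and BBSome genes, which carry cargo along the growing axoneme, ran the other way. Of 35 measured, 10 (28.6%) had both heterozygous arrays below all wild type arrays and 1 was above, with a median of -0.11. None was called at its strongest probe, and Dync2h1 was called lower at a weaker one. Ift74 read 8.77 and 8.73 in heterozygous and 8.92, 9.51 and 9.20 in wild type spermatocytes (-0.46, limma adjusted p = 0.289), and Kif3b, a motor subunit of the outward traffic, read 10.01 and 10.15 in heterozygous and 10.23, 10.59 and 10.68 in wild type spermatocytes (-0.42, limma adjusted p = 0.685). Wild type array 3 was the highest of the 5 for 18 of the 35, and the list's median was -0.03 without it. Ift172, another transport subunit, had a difference of 0.19. In spermatids the list's median was 0.03.

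The testis series named Spata, Tex and Spag holds proteins of many kinds first found in germ cells. Of 59 measured, 25 (42.4%) were above and 2 (3.39%) below, with a median of 0.08 and Spag4 called. The list averaged 9.14 and 9.12 on heterozygous and 8.99, 8.87 and 9.09 on wild type arrays, with wild type array 2 the lowest for 29 genes, and its median without that array was also 0.08. Tex43 read 10.72 and 10.89 in heterozygous and 10.56, 9.60 and 10.11 in wild type spermatocytes (0.72, limma adjusted p = 0.148), and Spata25 read 8.98 and 9.33 in heterozygous and 8.64, 8.07 and 8.43 in wild type spermatocytes (0.78, limma adjusted p = 0.223). At the other end Tex2, a lipid transfer protein of membrane contacts, read 10.61 and 10.36 in heterozygous and 10.76, 10.95 and 10.92 in wild type spermatocytes (-0.39, limma adjusted p = 0.111).

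**Figure D3:**
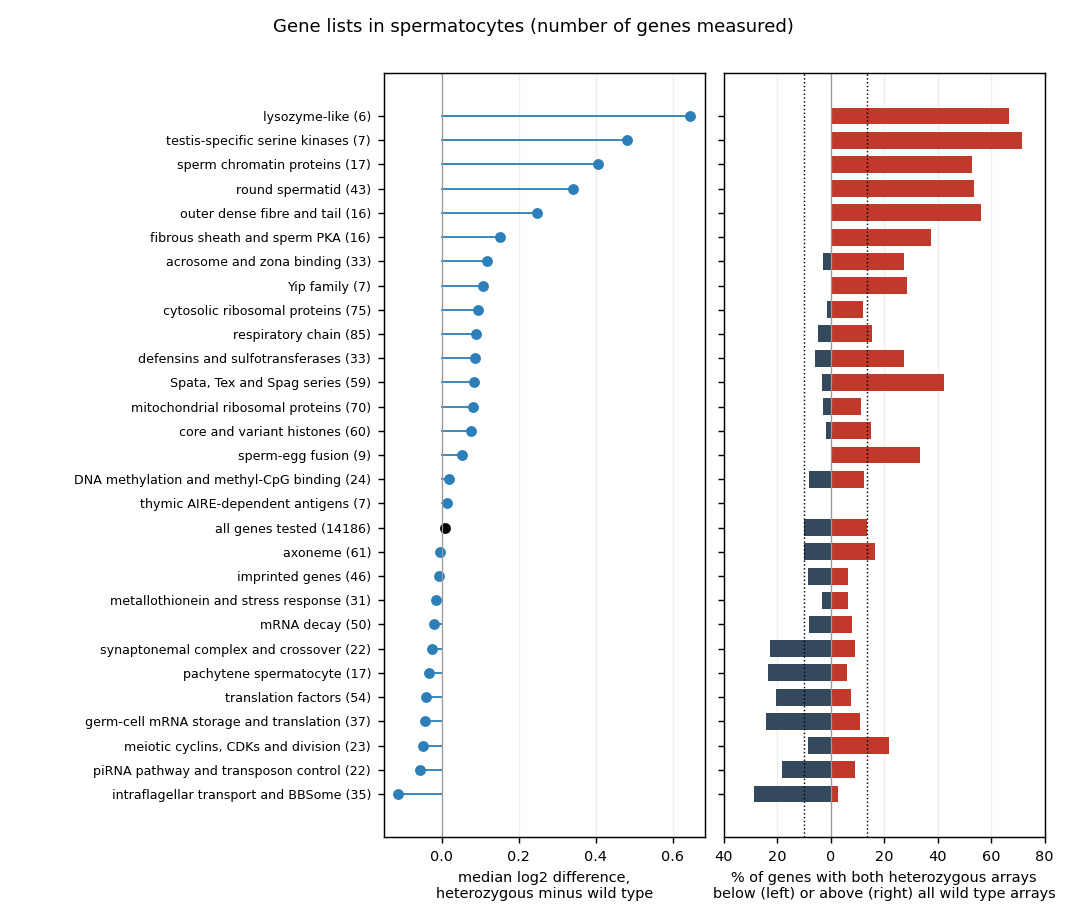
Median log2 difference of 28 gene lists and of all genes (left), and percent of each list with both heterozygous arrays above (right side, red) or below (left side, dark) all wild type arrays, with dotted lines at the 13.4% and 10.1% of all genes. Lists of the haploid phase lie at the top with medians up to 0.64, and intraflagellar transport lies at the bottom at -0.11.

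**Figure D4:**
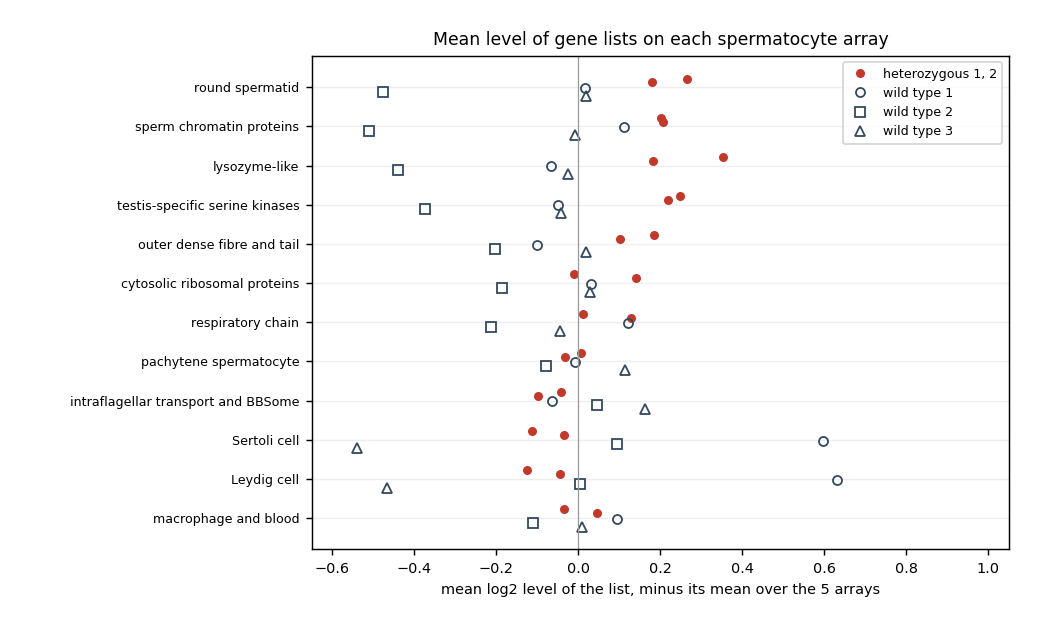
Mean log2 level of 12 gene lists on each of the 5 spermatocyte arrays, minus the mean over those arrays, with heterozygous arrays filled and each wild type array given its own open mark. Wild type array 2 is the lowest for the haploid-phase lists, and for Sertoli and Leydig cell markers wild type arrays 1 and 3 lie at the ends with the heterozygous arrays between them.

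Genes were also sorted by their level in wild type spermatids, which were not part of the spermatocyte contrast. This level is not a measure of haploid specificity, because some genes are abundant in both cell types. Cytosolic ribosomal proteins, for example, averaged 10.81, 10.68 and 10.83 on wild type spermatid arrays and 10.89, 10.68 and 10.89 on wild type spermatocyte arrays. Among the 3549 genes at 6 to 7 in wild type spermatids, 11.1% were above and 8.51% below in heterozygous spermatocytes. The share above was 14.4% of 2100 genes at 8 to 9, 18.6% of 1119 genes at 10 to 11 and 23.7% of 573 genes at 12 to 14. The share below was 12.3%, 10.6% and 4.89% in those bins. The genes that were most abundant in spermatids were thus the most often above and the least often below, although their median difference was only 0.08. Of the 21 genes called higher in this set of 1 probe a gene, 7 fell in the highest bin and none of the 7 genes called lower did.

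Wild type array 2 followed the same order. It was the lowest of the 5 arrays for 18.99% of genes in the lowest bin and 39.97% in the highest. Without it, an alternative chosen after seeing the data, the share above was 18.2% in the lowest bin and 26.5% in the highest, against 19.9% of all genes, and the share below was 13.1% and 9.25%, against 15.04%. The order of the ends was kept, with a narrower gap. When genes were sorted by their mean over all 11 arrays in place of the spermatid level, the share above was 10.3% at 6 to 7, highest at 9 to 10 (19.5%) and 13.6% at 12 to 14.

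**Figure D5:**
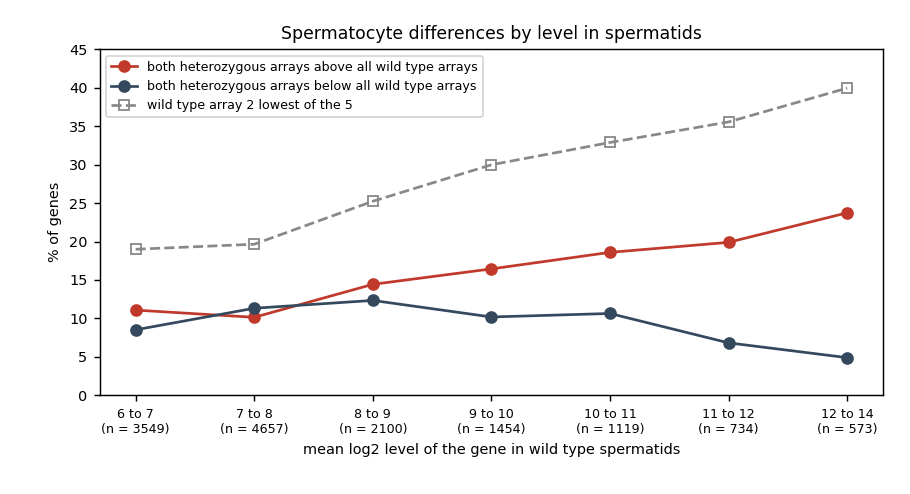
Percent of genes with both heterozygous spermatocyte arrays above (red) or below (dark) all wild type spermatocyte arrays, and with wild type array 2 lowest (dashed), by the gene's mean log2 level in wild type spermatids. The share above is 11.1% at 6 to 7 and 23.7% at 12 to 14, while wild type array 2 is lowest for 18.99% and 39.97%.

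For the called genes Spag4 and Znrf4 the promoter windows are shown because both hold the full palindrome TGACGTCA, the site of CREM and related factors that drive many spermatid genes. It was searched on either strand, which for a palindrome is 1 search, and is in capitals.
Spag4, chr2:156064963-156065262, plus strand: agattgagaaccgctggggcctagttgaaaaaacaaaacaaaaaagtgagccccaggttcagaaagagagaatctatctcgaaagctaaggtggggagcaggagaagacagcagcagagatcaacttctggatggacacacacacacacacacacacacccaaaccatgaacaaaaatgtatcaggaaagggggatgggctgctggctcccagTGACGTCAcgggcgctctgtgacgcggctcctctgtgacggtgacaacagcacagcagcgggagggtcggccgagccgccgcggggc
Znrf4, chr17:56512434-56512733, minus strand: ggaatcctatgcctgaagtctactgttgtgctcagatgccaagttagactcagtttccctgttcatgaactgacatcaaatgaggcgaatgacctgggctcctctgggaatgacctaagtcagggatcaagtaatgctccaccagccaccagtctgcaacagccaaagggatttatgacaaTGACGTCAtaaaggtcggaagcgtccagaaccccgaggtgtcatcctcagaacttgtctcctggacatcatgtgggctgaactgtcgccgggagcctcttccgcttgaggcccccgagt
The site begins 37 bases before the start of Spag4 and 69 bases before that of Znrf4, and both sequences come from RefSeq on GRCm38.p6. Of the 23 genes called higher, 19 were in the promoter table and 2 held the site, against 3.03% of the 11415 tested genes in the table and 1.79% of all windows. None of 13 genes called lower held it. Among the 36 round spermatid markers with a window, Ccin and Spag4 held it. These matches describe the letters of the windows and no binding was measured.

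The meiotic lists described here had medians between -0.05 and -0.02. Of those not described, cohesin and chromosome segregation had a median of -0.004. Sex chromosome silencing and damage signalling had one of -0.03, and transcription regulators of the haploid switch one of 0.02. Of 17 pachytene markers 1 was above and 4 (23.5%) below, with a median of -0.03 and means of 10.49 and 10.46 on heterozygous and 10.48, 10.41 and 10.60 on wild type arrays. Adam3, a sperm surface protein already made in pachytene cells, read 12.57 and 12.57 in heterozygous and 12.05, 12.22 and 12.43 in wild type spermatocytes (0.34, limma adjusted p = 0.522). Sycp2, an axial protein of the synaptonemal complex, read 8.99 and 8.95 in heterozygous and 9.21, 9.10 and 9.96 in wild type spermatocytes (-0.45, limma adjusted p = 0.687). The synaptonemal complex and crossover list had 2 above and 5 (22.7%) below of 22, against 10.1% of all genes below, with a median of -0.02, and no member was called.

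Among 23 meiotic cyclins, kinases and division genes 5 were above and 2 below. Ccne2, a cyclin that works with Cdk2 in meiosis, read 8.92 and 8.86 in heterozygous and 9.28, 9.78 and 9.40 in wild type spermatocytes (-0.60, limma adjusted p = 0.401), and Cdk2 had a difference of -0.28. Cdc25c, a phosphatase of the entry into division, read 8.18 and 8.04 in heterozygous and 7.82, 7.83 and 7.84 in wild type spermatocytes (0.28). The list's median was -0.05.

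Genes tied to the known work of DNMT3L gave no called member. In the piRNA pathway, which silences transposons in the germ line, 2 of 22 were above and 4 below, with a median of -0.06 in spermatocytes and 0.13 in spermatids. Tdrd6, a Tudor protein of the chromatoid body, read 12.83 and 12.84 in heterozygous and 12.37, 12.60 and 12.71 in wild type spermatocytes (0.27), and Ddx4, the germ line helicase, read 10.32 and 10.08 in heterozygous and 10.42, 10.69 and 10.47 in wild type spermatocytes (-0.32). Of 24 genes of DNA methylation and methyl-CpG binding 3 were above and 2 below, with a median of 0.02. Uhrf1, which brings the maintenance methyltransferase to DNA, read 10.43 and 10.58 in heterozygous and 10.60, 10.74 and 10.85 in wild type spermatocytes (-0.23).

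Imprinted genes, whose marks depend on DNMT3L in both germ lines, had a median of -0.01 over 46 measured, with 3 above and 4 below. The cell cycle inhibitor Cdkn1c read 8.11 and 8.19 in heterozygous and 7.98, 7.96 and 7.71 in wild type spermatocytes (0.27). Impact, a regulator of translation, read 6.94 and 7.13 in heterozygous and 7.28, 7.39 and 7.40 in wild type spermatocytes (-0.32, limma adjusted p = 0.28). Both had groups that did not overlap. Of 22 tissue antigens that AIRE turns on in the thymus 7 were measured, none was called, none had separated groups, and their differences ran from -0.08 to 0.11.

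Histones and the machinery of translation and respiration showed small, uneven differences. Core and variant histones had 9 of 60 above and 1 below, with a median of 0.08. H2bc22 read 10.91 and 11.05 in heterozygous and 10.87, 10.29 and 10.30 in wild type spermatocytes (0.49, limma adjusted p = 0.256). Cytosolic ribosomal proteins had a positive difference in 58 of 75, with a median of 0.09, 9 (12.0%) above, 1 (1.33%) below and Rpl34 called. Their mean was 10.85 and 11.00 on heterozygous and 10.89, 10.68 and 10.89 on wild type arrays, and wild type array 2 was the lowest for 45.

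Mitochondrial ribosomal proteins had 8 of 70 above, 2 below and a median of 0.08, which was 0.00 without heterozygous array 2. Mrps34, of the small mitochondrial subunit, read 11.42 and 11.75 in heterozygous and 11.18, 11.09 and 10.83 in wild type spermatocytes (0.55, limma adjusted p = 0.0657). In the respiratory chain 13 of 85 (15.3%) were above and 4 (4.71%) below with a median of 0.09, and 0.02 without wild type array 2. Atp5mpl, a small subunit of ATP synthase, read 10.90 and 11.20 in heterozygous and 10.78, 9.99 and 10.66 in wild type spermatocytes (0.58, limma adjusted p = 0.338).

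Translation factors and regulators of mRNA storage lay more often below than above, while 13.4% of all genes were above and 10.1% below. Translation factors had 11 of 54 (20.4%) below and 4 (7.41%) above, with a median of -0.04. Eif3c, a scaffold subunit of initiation, read 9.27 and 9.39 in heterozygous and 9.56, 9.78 and 9.73 in wild type spermatocytes (-0.36, limma adjusted p = 0.143). Regulators of mRNA storage in germ cells had 9 of 37 (24.3%) below and 4 (10.8%) above, also with a median of -0.04. Within this list Msi2, a Musashi RNA-binding protein, read 11.13 and 11.17 in heterozygous and 11.00, 10.42 and 10.39 in wild type spermatocytes (0.55, limma adjusted p = 0.123), and Pabpc1, the poly(A)-binding protein, read 10.22 and 10.12 in heterozygous and 10.50, 10.65 and 10.48 in wild type spermatocytes (-0.37).

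In mRNA decay, where Xrn1 was called, 4 of 50 were above and 4 below. Tob1, which recruits the deadenylase, read 8.43 and 8.50 in heterozygous and 8.94, 8.91 and 8.83 in wild type spermatocytes (-0.43, limma adjusted p = 0.0824), and Cnot1, the scaffold of that deadenylase, had a difference of -0.56. Of 31 stress response genes Mt2 was called higher at its strongest probe and Sesn3 lower at a weaker probe, with 2 above and 1 below.

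Families of the other called genes were also counted. In the Yip family Yipf7 was called and 2 of 7 were above, with Yipf2 at 0.22, Yipf3 at 0.18 and Yipf4 at -0.17. Among 33 defensins and sulfotransferases 9 were above and 2 below with a median of 0.09. Defb14, a defensin, read 8.94 and 9.10 in heterozygous and 8.55, 8.09 and 8.26 in wild type spermatocytes (0.72, limma adjusted p = 0.131). Single calls stood in N-glycosylation (Ddost, 38 measured) and in heat shock and DnaJ proteins (Dnajc5b, 55). Among 60 ubiquitin ligases Znrf4 was called higher and Ube3b lower, the fall at a probe that is not the strongest of its gene, and among 33 cadherins Cdh1 was called higher and Cdh2, likewise at a weaker probe, lower. Olfactory receptor genes, near background in this tissue, had 51 of 315 measured (16.2%) above and 14 (4.44%) below, with a positive difference in 234 and a median of 0.04. In spermatids the same genes had 59 above and 6 below with a median of 0.06. Over all 14186 genes 743 were above and 372 below in spermatids, with a median of 0.01.

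Among the 10 uncalled genes with the largest positive differences and groups that did not overlap, every gene but Tmem87a had a wild type spermatid level of 11.1 to 12.9. Txndc8, a thioredoxin of spermatids, read 10.87 and 10.86 in heterozygous and 10.30, 9.62 and 10.13 in wild type spermatocytes (0.85), and Pfn3, a testis profilin, read 10.55 and 10.46 in heterozygous and 9.99, 9.28 and 9.86 in wild type spermatocytes (0.80). The uncharacterised 1700034E13Rik read 10.44 and 10.48 in heterozygous and 10.05, 8.98 and 9.61 in wild type spermatocytes (0.92, limma adjusted p = 0.17). Wild type array 2 was again the lowest for these. In the opposite direction Tcp1, a subunit of the cytosolic chaperonin, read 10.53 and 9.95 in heterozygous and 10.81, 11.04 and 11.47 in wild type spermatocytes (-0.87, limma adjusted p = 0.28). Qk, an RNA-binding regulator of splicing, read 11.98 and 11.67 in heterozygous and 12.35, 12.48 and 12.67 in wild type spermatocytes (-0.68), and Meioc, which sustains meiotic prophase, read 10.45 and 10.28 in heterozygous and 10.78, 11.15 and 10.94 in wild type spermatocytes (-0.59).

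No X-linked probe was called among all probes. In a fit of the 585 X-linked probes alone, read at an adjusted p of 0.2, 11 (1.88%) were called, 8 higher and 3 lower. Tsga8, a testis-specific gene active in spermatids, led with 12.40 and 12.34 in heterozygous and 12.10, 11.77 and 11.95 in wild type spermatocytes (0.43, limma adjusted p = 0.0429). The other 10 were near background, with differences between -0.23 and 0.19, and one of them, Dmrtc1a, had overlapping groups. Xist, the RNA of X inactivation, was among them with 6.87 and 7.06 in heterozygous and 6.78, 6.78 and 6.86 in wild type spermatocytes (0.16). Over all X-linked probes 65 (11.1%) were above and 80 (13.7%) below.

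X-linked probes with a mean over 10 were 12 in number, of which 8 were above and none below, with a median of 0.41. Wild type array 2 was the lowest for all 12, and without it the median was 0.20 with the same 66.7% above. Between 7 and 8, by contrast, 42 of 240 X-linked probes were below and 14 above. Autosomes were even, with median differences from -0.02 on chromosome 3 to 0.02 on chromosomes 7 and 17. Chromosome 18 had the most uneven split of the autosomes, with 8.43% of its 581 probes above and 14.97% below, and chromosome 17 had 13.5% above and 8.59% below.

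The comparison with heterozygous and wild type spermatids shares no array with the one in spermatocytes, though both enter one fit. Of the 28 probes called higher in spermatocytes 21 also had a positive difference in spermatids, with a median of 0.13, and 4 were called higher there (106020017, 102260070, Sult2a2 and Xrn1). Of the 24 called lower, 14 had a negative difference in spermatids and none was called. Over all probes 54.3% were positive in spermatids, 75 (0.268%) were called higher and 48 (0.172%) lower. The test of the difference between the cell types called no probe (0.00%) in limma, with 566 at an unadjusted p under 0.05. The smallest unadjusted p was that of Ube3b (0.000431) at its called probe. The difference there was -0.44 in spermatocytes and 0.26 in spermatids. At the stronger probe of Ube3b the differences were -0.32 and -0.16, with an unadjusted p of 0.516 in the limma interaction.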

How the data were processed

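RNA of 11 preparations, each from 10 mice, was hybridised to Illumina Mouse WG-6 BeadChips, with all spermatocyte samples on one BeadChip and all spermatids on another, so chip and cell type cannot be told apart while both genotypes share a chip. The authors exported bead signals with BeadStudio, subtracted the mean of the negative controls, and applied the variance-stabilising transformation and quantile normalisation of lumi. The sources used here do not give the versions. The deposited values are log2 intensities after these steps, and sorted columns differ by at most 0.00873. A second deposited table has 22 columns that match no sample name and was not used. The arrays give no counts, and their number limits the precision. Variance stabilisation and quantile normalisation compress differences near background and remove any change in total RNA.

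Samples were grouped by their titles, and no condition was inferred from values. GEO's labels give 2 heterozygous spermatocyte preparations while the study's methods name 3, so the third is not analysed here. A mean per group was fitted over all 11 arrays with limma 3.58.1 in R 4.3.3 (statmod 1.5.0), after the lowest 40% of probes had been left out, following the study's methods. The groups shared one spread (residual degrees of freedom 7, prior 1.89). P-values were adjusted by Benjamini-Hochberg across every probe in 4 contrasts at 0.05, over X-linked probes and 4 contrasts at 0.2, and within the contrast for the interaction. The fit was tested on simulated data.

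Of the 46643 probes 32794 have 1 symbol, 55 several and 13794 none. Symbols were updated through a RefSeq gene table of GRCm38.p6, which matched 32770, and 24 kept the platform's symbol. The 64 gene lists used 1 probe a gene, that with the highest mean over all arrays, and were described by counts and medians with no test of a list. Members and lists were chosen with earlier results of these data known. Named genes are the probes of Dnmt3l and Aire, all called probes, up to 2 uncalled members at each end of a described list, the 10 uncalled genes at each end with groups that do not overlap, the X-linked calls, the 5 probes of smallest interaction p and cell type markers as levels. Alternatives covered the filter, the adjustment, the arrays fitted, the variance prior, array weights, a replicate block and each array left out. Tables were handled in Python 3.11.15 with pandas 2.3.3 and plots made in matplotlib 3.10.9.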

Additional observations from a re-analysis of the deposited data

How the results depend on the processing

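The count of 52 called probes moved with most settings. It was 73 with no filter on low probes, 30 (28 higher, 2 lower) with the lowest 60% left out, 1 with adjustment within the contrast, 0 in a fit of the 5 spermatocyte arrays alone (1809 at an unadjusted p under 0.05), 98 with a trended and robust prior, 350 with array weights, of which 52 were the calls as reported, and 14 when a difference of 0.5 was also asked. Leaving out each array gave 12 to 134 calls: 12 without wild type spermatocyte array 2, 21 without heterozygous array 2, 32 without heterozygous array 1, 34 without wild type array 3, 76 without wild type array 1, 20 when wild type spermatid array 1 was dropped and 134 when heterozygous spermatid array 2 was. In all 5 omissions of a spermatocyte array, 3 of the 28 rises (Aire at its stronger probe, 106020017 and 102260070) and 1 of the 24 falls (103520411) remained. The X-linked count of 11 was 0 with adjustment within the contrast, 20 with no filter and 4 to 16 with each spermatocyte array left out (4 without heterozygous spermatocyte array 2). The interaction called 0 probes in every setting run. Same-numbered wild type and heterozygous arrays correlated in their deviations at r = -0.26 (number 1) and 0.07 (number 2) in spermatocytes, where a group of 2 gives mirrored deviations and so little information, and at 0.28, 0.33 and 0.06 in spermatids. Not every pair was over 0.1, so the numbers were not taken to pair the samples. With the replicate number as a block the fit called 110 probes, 25 of them among the 52, and 14 X-linked probes. For named genes no alternative reversed a direction, and the 52 called probes kept their call in 263 of 612 combinations of probe and setting. The cause of these shifts was not tested. The low levels near 6.4 to 7 on these arrays limit what falls can be measured.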
